A study of Homo sapiens with 10 samples.

Results

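The genes described here are 10 enzymes of mucin-type O-glycosylation and of its sugar supply: GALNT1, GALNT2, GALNT3, GALNT6, GALNT7, GALNT10, GALNT11, GALNT12, C1GALT1 and UAP1. They are 10 of 19775 genes measured on Affymetrix arrays in MM.1S, a human multiple myeloma cell line that grows in suspension and resembles plasma cells. GALNT3 and UAP1 were chosen by their log2 change in HDAC3 knockdown, where their signal lay far below control, so their changes against control are descriptions and carry no test. The other 8 are paralogs of GALNT3 and the enzyme that extends their product, and the question was whether GALNT3 stood alone or its paralogs moved as well. All 10 were named with results of these arrays known.

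Cells were infected with lentivirus carrying a short hairpin RNA, and total RNA was taken 48 h later. The 5 groups have 2 arrays each: shLuc, a hairpin against luciferase and the control; shHDAC3#1 and shHDAC3#2, against HDAC3, a histone deacetylase; and shDNMT1#1 and shDNMT1#2, against DNMT1, which copies DNA methylation after replication. All groups, the control included, share the cell line, the infection and the interval to harvest. Labels name shLuc as the control of the HDAC3 hairpins, and whether the DNMT1 arrays were infected and hybridized beside it is not stated in the labels.

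Mucin-type O-glycosylation begins in the Golgi, where enzymes of the GALNT family move N-acetylgalactosamine from UDP-GalNAc onto serine or threonine of a passing protein. Some members act on bare peptides, whereas GALNT7 and GALNT10 prefer peptides that already carry such a sugar. C1GALT1 then adds galactose to make the core 1 structure, on which most longer O-glycans of blood cells are built. UAP1 makes UDP-N-acetylglucosamine, the end product of the hexosamine pathway, which is a source of UDP-GalNAc and also feeds N-glycans and the O-GlcNAc mark of nuclear proteins. In plasma cells and myeloma cells this machinery serves a secretory pathway that is busy with antibody.

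The promoters of GALNT3, UAP1, GALNT7 and C1GALT1 are shown because these 4 genes lay below control in both knockdowns on their leading probe sets, and because DNMT1 acts on the CpG dinucleotides that such promoters hold. They are RefSeq sequences of GRCh38.p14, each 300 bases long around an annotated start and mostly upstream of it, written 5′ to 3′ on the gene's strand. Capitals mark matches on either strand to TGACGTG (a core bound by factors of the ATF6 and CREB type), CACGTG (the E-box of MYC and related factors), CCAAT (bound by NF-Y) and GGGCGG (the GC box of SP1). Of the 10 genes, 9 had an entry, and GALNT6 is named only. UAP1 has 3 annotated starts, and the first is shown.
GALNT3, chr2:165794198-165794497, minus strand: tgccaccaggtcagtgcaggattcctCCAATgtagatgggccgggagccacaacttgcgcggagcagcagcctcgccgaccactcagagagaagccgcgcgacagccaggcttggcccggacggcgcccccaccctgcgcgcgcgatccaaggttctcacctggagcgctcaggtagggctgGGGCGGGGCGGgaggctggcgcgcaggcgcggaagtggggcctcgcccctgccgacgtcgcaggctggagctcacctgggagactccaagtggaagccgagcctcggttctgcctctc
UAP1, chr1:162561281-162561580, plus strand: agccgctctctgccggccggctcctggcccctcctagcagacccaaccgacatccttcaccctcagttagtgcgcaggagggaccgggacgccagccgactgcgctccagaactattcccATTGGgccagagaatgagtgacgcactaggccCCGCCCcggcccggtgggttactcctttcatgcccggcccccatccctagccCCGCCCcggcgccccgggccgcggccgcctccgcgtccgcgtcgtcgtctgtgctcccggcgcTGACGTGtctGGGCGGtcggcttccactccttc
GALNT7, chr4:173168561-173168860, plus strand: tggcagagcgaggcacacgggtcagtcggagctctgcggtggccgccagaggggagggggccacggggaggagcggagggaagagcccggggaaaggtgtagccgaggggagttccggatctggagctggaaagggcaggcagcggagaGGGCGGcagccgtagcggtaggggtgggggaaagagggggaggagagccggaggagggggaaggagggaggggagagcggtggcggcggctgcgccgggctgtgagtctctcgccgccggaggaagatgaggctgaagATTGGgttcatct
C1GALT1, chr7:7182294-7182593, plus strand: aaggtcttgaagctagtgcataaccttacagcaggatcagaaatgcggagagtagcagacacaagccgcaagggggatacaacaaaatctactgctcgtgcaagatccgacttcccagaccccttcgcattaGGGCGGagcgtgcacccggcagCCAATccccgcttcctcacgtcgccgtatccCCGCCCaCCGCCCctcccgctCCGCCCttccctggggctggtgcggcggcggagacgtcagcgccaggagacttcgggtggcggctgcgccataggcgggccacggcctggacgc

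These windows held 28 CpG dinucleotides in GALNT3, 32 in UAP1, 23 in GALNT7 and 27 in C1GALT1. Over 35116 promoters of the same length the median was 14 and the quartiles 4 and 28. Of the genes not called lower in DNMT1 knockdown, GALNT2 and GALNT10 held 51 each, GALNT12 29, GALNT11 2, and GALNT1 9, 50 and 62 at its 3 starts. The other starts of UAP1 held 48 and 45. Each of the 4 windows shown held 1 CCAAT match, a motif found in 34.6% of the 35116 promoters. GGGCGG, found in 45.0%, matched 2 times in GALNT3, where the matches overlap, 3 times in UAP1, 1 time in GALNT7 and 4 times in C1GALT1. TGACGTG, found in 1.97%, matched 1 time in UAP1 and in none of the other 3 windows. CACGTG, found in 7.26%, matched in none of the 4. A match describes letters in a window, and neither methylation nor factor binding was measured.

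The knockdowns were visible in the targets. HDAC3 fell in HDAC3 knockdown (the mean of both hairpins against shLuc; log2 change -1.18 ± 0.16 SE, adjusted p = 1.2e-05), and DNMT1 fell in DNMT1 knockdown (-2.39 ± 0.10, adjusted p = 9.5e-12) and also in HDAC3 knockdown (-0.92 ± 0.10, adjusted p = 1.6e-06). HDAC3 was not called in DNMT1 knockdown (-0.36 ± 0.16, adjusted p = 0.11). It was called lower with shDNMT1#2 alone (-0.60, adjusted p = 0.019) and not with shDNMT1#1 (-0.12, adjusted p = 0.73). Values are RMA signals on a log2 scale, and adjusted p-values are limma's with Benjamini-Hochberg adjustment over all 19775 genes, a gene being called under 0.05. All 8 plasma cell markers examined had a mean signal between 6.21 and 10.26. Averaged over each list, plasma cell markers lay at 9.44 and 9.42 in shLuc and at 8.75 to 9.37 in the knockdown arrays, B cell markers at 6.24 to 6.53 over all arrays, T cell markers at 4.79 to 4.98, myeloid markers at 5.62 to 5.82, erythroid markers at 6.32 to 7.07 and stromal and epithelial markers at 5.38 to 5.87. Both shLuc arrays had a wider spread of signal (SD 1.943 and 1.929) than the 8 knockdown arrays (1.843 to 1.915). ACTB read higher from its 3' end than from its 5' end, a gap that widens as RNA degrades, by 0.98 and 1.02 in shHDAC3#1 and 0.63 to 0.81 elsewhere. Separate cultures are not named for the arrays of a group, so the spread behind each p-value is one between arrays and may be purely technical.

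UAP1, read by 1 probe set, stood highest in control and lowest with shHDAC3#1. Its log2 signal was 9.86 and 9.72 in shLuc, 7.37 and 7.19 in shHDAC3#1, 8.74 and 8.88 in shHDAC3#2, 8.62 and 8.39 in shDNMT1#1, and 9.18 and 8.98 in shDNMT1#2. All 8 knockdown arrays lay below both control arrays. In HDAC3 knockdown the signal was 29.9% of control (log2 change -1.74 ± 0.09 SE, 3.35-fold lower), and this is the difference for which the gene was chosen. With shHDAC3#1 it was 5.70-fold lower and with shHDAC3#2 1.97-fold lower. In DNMT1 knockdown, against the same 2 control arrays, it was 50.2% of control (-0.99 ± 0.09), with -1.28 for shDNMT1#1 and -0.71 for shDNMT1#2. In bulk RNA, fewer cells with a transcript and less of it per cell cannot be told apart.

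GALNT3 starts O-glycans on FGF23 and other secreted proteins, and its loss causes a disorder of phosphate balance. Its signal was 6.58 and 6.39 in shLuc, 3.53 and 3.78 in shHDAC3#1, 5.37 and 5.53 in shHDAC3#2, 5.81 and 5.56 in shDNMT1#1, and 6.31 and 6.12 in shDNMT1#2. Here too all 8 knockdown arrays lay below both control arrays, with the higher shDNMT1#2 array (6.31) next to the lower control array (6.39). In HDAC3 knockdown its signal had a log2 change of -1.93 ± 0.12 SE, the lowest change of all 19775 genes, where UAP1 ranked 5 from the bottom. These ranks describe the choice of both genes. With shHDAC3#1 GALNT3 had a log2 change of -2.83 at a signal near background, where RMA compresses differences. No fold of the transcript is read from it or from the mean of both hairpins. With shHDAC3#2 it was 2.05-fold below control. In DNMT1 knockdown it was 69.2% of control (-0.53 ± 0.12), with -0.80 and -0.26 for shDNMT1#1 and shDNMT1#2.

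**Figure D1:**
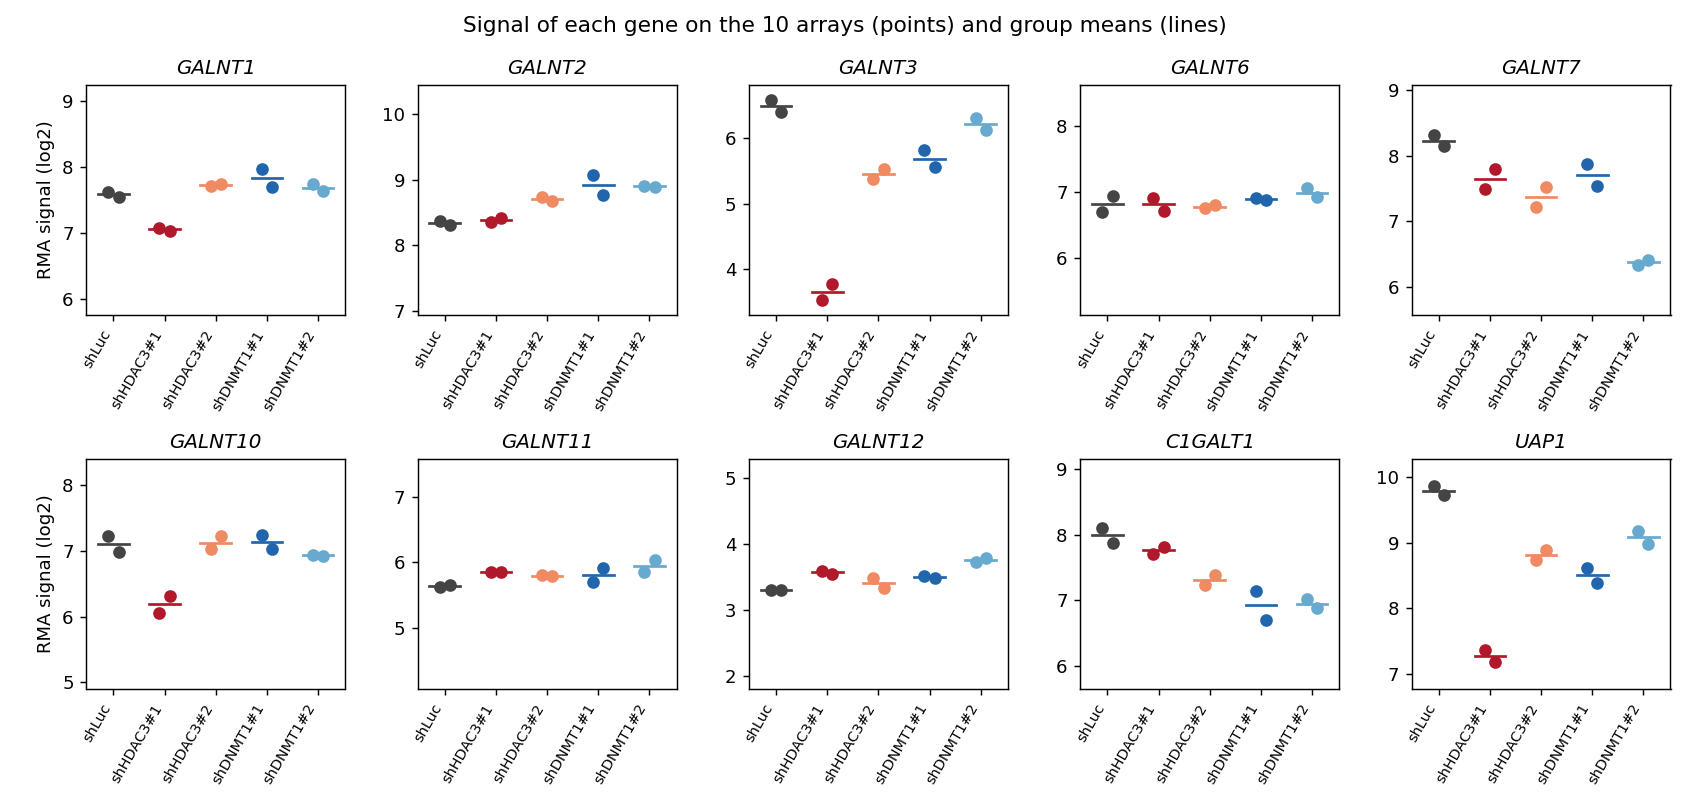
Log2 RMA signal of the leading probe set of each gene (vertical axis, the same span in every panel) on the 10 arrays, by group; points are arrays and lines are means of 2 arrays. GALNT3 and UAP1 drop furthest with shHDAC3#1, GALNT7 with shDNMT1#2 (6.34 and 6.42), C1GALT1 with both DNMT1 hairpins, and GALNT6 stays between 6.69 and 7.06.

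Besides GALNT3 and UAP1, 8 genes were counted, also named with results of these arrays known. Of these 8, 3 fell in HDAC3 knockdown: the paralogs GALNT7 and GALNT10, and C1GALT1, which is no paralog of GALNT3. limma called none higher; at an unadjusted p under 0.05, 4 were lower and 1 higher. Over all genes 19.2% were called in this comparison, 15.3% lower and 3.96% higher, so that 2 called paralogs are near the background and say nothing of the family as a whole. With the hairpin as a random block, disagreement between a target's hairpins counts as error. None of the 8 was then called, and of all genes only 0.369% were. The median change of the 8 was -0.11, against 0.05 for all genes. Their changes reached 1.65-fold at most. That GALNT3 and UAP1 changed more follows from their choice in this comparison and is no result.

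GALNT7, which extends clusters of O-glycans on partly glycosylated peptides, read 8.31 and 8.14 in shLuc, 7.49 and 7.79 in shHDAC3#1, and 7.22 and 7.53 in shHDAC3#2. The 4 HDAC3 arrays lay below both control arrays. It fell by a log2 change of -0.72 ± 0.11 SE, to 60.7% of control (adjusted p = 7.3e-05), and was called with each hairpin (-0.59, adjusted p = 0.0022, and -0.85, adjusted p = 8.3e-05). C1GALT1 read 8.10 and 7.88 in shLuc, 7.71 and 7.82 in shHDAC3#1, and 7.23 and 7.38 in shHDAC3#2. Its 4 HDAC3 arrays also lay below both controls, with 7.82 next to 7.88, and it fell to 73% of control (-0.45 ± 0.11, adjusted p = 0.0055). With the mean of its 3 probe sets the change was -0.22 and the call was lost. The difference was called with shHDAC3#2 (-0.68, adjusted p = 7.8e-04) and not with shHDAC3#1 (-0.22, adjusted p = 0.21).

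GALNT10, like GALNT7 an enzyme that favours glycosylated peptides, read 7.22 and 6.98 in shLuc, 6.06 and 6.32 in shHDAC3#1, and 7.02 and 7.22 in shHDAC3#2. Only the shHDAC3#1 arrays lay below the controls, and the call for the mean of both hairpins (-0.44 ± 0.11, adjusted p = 0.0046) rests on them. With shHDAC3#1 it was 53.3% of control (adjusted p = 1.1e-05) and with shHDAC3#2 101% (adjusted p = 0.94). GALNT1, a broadly expressed initiating enzyme, had a similar course without a call for the mean (-0.20 ± 0.09, adjusted p = 0.14). Its signal was 7.63 and 7.54 in shLuc, 7.08 and 7.03 in shHDAC3#1, and 7.71 and 7.75 in shHDAC3#2, so that the arrays of the 2 hairpins lay on opposite sides of the controls. It was called with shHDAC3#1 (-0.53, adjusted p = 7.3e-04) and not with shHDAC3#2 (0.14, adjusted p = 0.48).

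The remaining 4 paralogs were not called in HDAC3 knockdown. GALNT2, another broadly expressed initiating enzyme, which glycosylates proteins of lipid metabolism, had a change of 0.21 (95% interval 0.03 to 0.39, adjusted p = 0.093). It was called higher with shHDAC3#2 alone (0.37, adjusted p = 0.017) and after further quantile normalization (0.36), and stood at 0.05 with shHDAC3#1 (adjusted p = 0.73). GALNT11, which acts on the receptor NOTCH1, had 0.19 (-0.02 to 0.41, adjusted p = 0.2). GALNT12, an enzyme of the digestive tract, had 0.18 (-0.03 to 0.39, adjusted p = 0.22) at a dim mean signal of 3.51. GALNT6, the closest paralog of GALNT3, had -0.02 (-0.23 to 0.18, adjusted p = 0.88), and its 10 arrays spanned 0.36, the narrowest range of the 10 genes. Without shLuc replicate 1 GALNT10 (-0.32) and C1GALT1 (-0.34) were no longer called, and GALNT7 stood at -0.63. Fewer genes were called there over all genes too, so that this loss is not particular to these genes. Without either shDNMT1#1 array GALNT2 was called higher as well (0.21). With the SD of each array as a covariate, a choice made after seeing the data, none of the 8 was called. GALNT7, GALNT10 and C1GALT1 then stood at -0.08, 0.09 and 0.12. In that fit 0.576% of all genes were called.

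**Figure D2:**
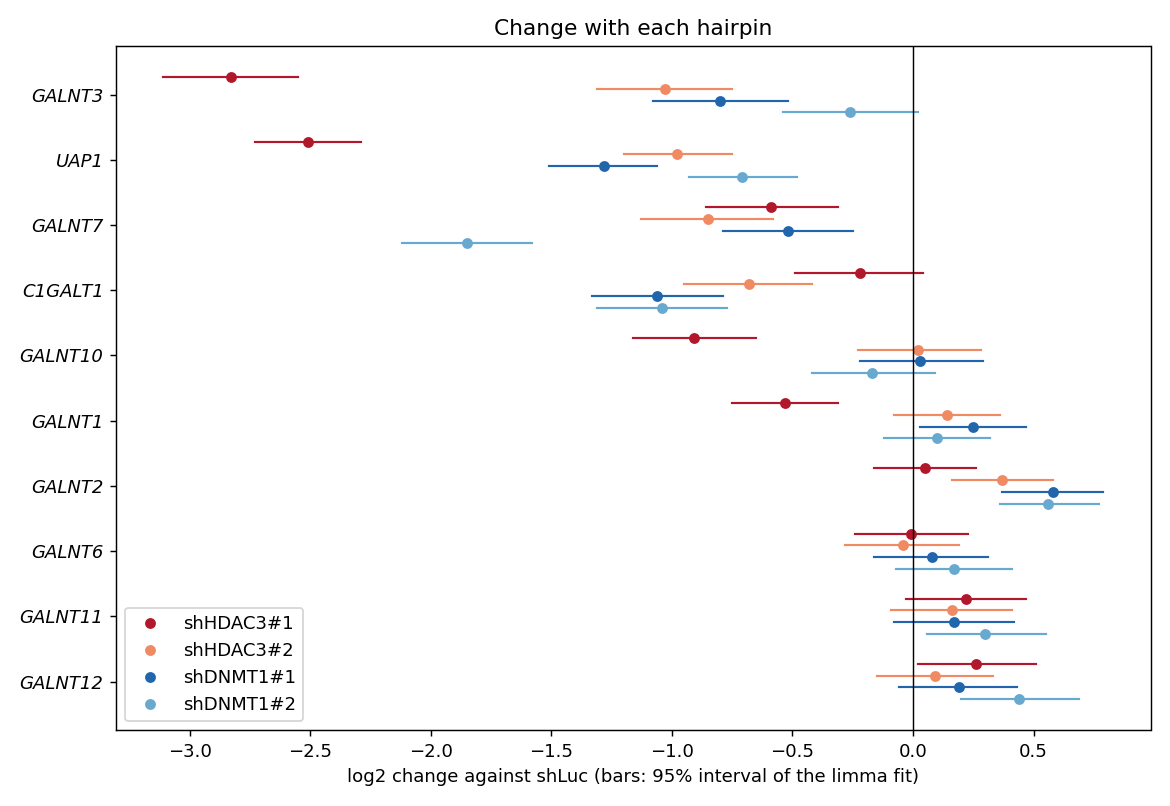
Log2 change against shLuc (horizontal axis) of each gene with each of the 4 hairpins; points are limma estimates from 2 arrays against 2, and bars are their 95% intervals. GALNT3 and UAP1 stand lowest with shHDAC3#1 at -2.83 and -2.51, whereas GALNT7 is lowest with shDNMT1#2 at -1.85.

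In DNMT1 knockdown 4 of the 8 were called, 2 lower (GALNT7 and C1GALT1) and 2 higher (GALNT2 and GALNT12), where 20.2% of all genes were called, 13.5% lower and 6.66% higher. At an unadjusted p under 0.05, 2 were lower and 3 higher. The median change of the 8 was 0.15, against 0.07 for all genes. The control arrays are those of the HDAC3 comparison, so that values in both comparisons share them.

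GALNT7 fell by a log2 change of -1.19 ± 0.11 SE, to 43.9% of control (adjusted p = 1.9e-07). Its signal was 7.87 and 7.54 in shDNMT1#1 and 6.34 and 6.42 in shDNMT1#2, all below the control values of 8.31 and 8.14. The hairpins differed in size, with -0.52 (adjusted p = 0.013) for shDNMT1#1 and a 3.60-fold decrease (adjusted p = 1.2e-09) for shDNMT1#2. C1GALT1 fell to 48.3% of control (-1.05 ± 0.11, adjusted p = 7.4e-07), with 7.15 and 6.71 in shDNMT1#1 and 7.02 and 6.88 in shDNMT1#2. These 4 arrays lay below every control and HDAC3 array, and the hairpins gave -1.06 and -1.04.

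GALNT2 rose to 149% of control (0.57 ± 0.09, adjusted p = 5.6e-05). Its signal was 8.37 and 8.31 in shLuc, 9.07 and 8.76 in shDNMT1#1, and 8.91 and 8.89 in shDNMT1#2, and the groups did not overlap. The increase was largest on its leading probe set, while 223991_s_at rose by 0.26 ± 0.08. With the mean of its probe sets GALNT2 was still called. The fit without probe sets that can cross-hybridize read GALNT2 from the dimmer 239930_at (mean signal 5.61), and there the change was 0.00. GALNT12 was called higher (0.31 ± 0.10, adjusted p = 0.031), from 3.31 on both control arrays to between 3.49 and 3.79 on the 4 DNMT1 arrays, close to the lower end of the signal range. That call was lost under 11 of 21 alternatives, among them leaving out shLuc replicate 1, shLuc replicate 2, shDNMT1#1 replicate 2 or shDNMT1#2 replicate 2.

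GALNT1 (0.18, 95% interval -0.01 to 0.37, adjusted p = 0.18), GALNT6 (0.12, -0.08 to 0.33, adjusted p = 0.39), GALNT10 (-0.07, -0.29 to 0.15, adjusted p = 0.68) and GALNT11 (0.24, 0.02 to 0.45, adjusted p = 0.11) were not called in DNMT1 knockdown. GALNT11 was called (0.29) without shDNMT1#1 replicate 1. With the hairpin as a random block none of the 8 was called, and of all genes only 0.157% were. With the array SD as a covariate, where 0.602% of all genes were called, GALNT2 was the only one of the 8 (0.76). GALNT7 and C1GALT1 then stood at -0.52 and -0.45.

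The difference between the knockdowns was tested directly, as DNMT1 knockdown minus HDAC3 knockdown, in which the control arrays cancel. Of the 8 genes 5 were called, 3 of them higher in DNMT1 knockdown (GALNT1, GALNT2 and GALNT10) and 2 lower (GALNT7 and C1GALT1); over all genes 9.59% were called, 6% higher and 3.59% lower. C1GALT1 differed by -0.60 ± 0.09 SE (adjusted p = 1.1e-04) and GALNT7 by -0.47 ± 0.09 (adjusted p = 0.0016). GALNT10 differed by 0.38 ± 0.09 (adjusted p = 0.0062), GALNT1 by 0.37 ± 0.07 (adjusted p = 0.0018) and GALNT2 by 0.36 ± 0.07 (adjusted p = 0.0016). The shHDAC3#1 arrays of GALNT1 and GALNT10 lay below all their other arrays. For GALNT3 the difference was 1.40 and for UAP1 0.75, given as values because both were chosen in the HDAC3 comparison. Without shHDAC3#1 replicate 1 GALNT10 was no longer called (0.31). With the mean of each gene's probe sets GALNT7 and GALNT10 were not called (-0.37 and 0.19), and without probe sets that can cross-hybridize the GALNT2 difference turned to -0.03.

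The hairpins against HDAC3 also differed from each other. GALNT3 and UAP1 were chosen on the mean of these same 4 arrays against control, where shHDAC3#1 gave the larger fall. Their differences between the hairpins are therefore not independent of that choice. Of the 10 genes, GALNT3 and UAP1 included, 6 were called between the hairpins, 5 lower with shHDAC3#1 and 1 higher. Over all genes 12.6% were called, 8.85% lower and 3.75% higher. UAP1 was 2.89-fold lower with shHDAC3#1 than with shHDAC3#2 (log2 difference -1.53 ± 0.11 SE, adjusted p = 1.7e-09) and GALNT3 was lower as well (difference of the signals -1.79 ± 0.13, adjusted p = 4.3e-09; the lower signal is near background). GALNT10 (-0.93 ± 0.12, adjusted p = 1.1e-05), GALNT1 (-0.67 ± 0.11, adjusted p = 8.3e-05) and GALNT2 (-0.32 ± 0.10, adjusted p = 0.041) were lower as well. C1GALT1 went the other way (0.46 ± 0.13, adjusted p = 0.019), and GALNT7 was not called (0.27, 95% interval 0.00 to 0.54, adjusted p = 0.24).

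The GALNT2 difference turned to 0.04 with the mean of its probe sets and to 0.03 without probe sets that can cross-hybridize, and the C1GALT1 difference shrank to 0.12, without a call, with the mean of its probe sets. The GALNT2 call was lost without either shLuc array, any HDAC3 array or either shDNMT1#2 array (-0.35 to -0.29 over all arrays left out), and that of C1GALT1 without either shHDAC3#1 array or shHDAC3#2 replicate 1. The HDAC3 transcript itself changed by -1.09 with shHDAC3#1 and -1.26 with shHDAC3#2, and DNMT1 by -1.20 and -0.65. The part of these differences, and of the ACTB 3' to 5' difference in shHDAC3#1, in the results was not tested.

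Between the hairpins against DNMT1 3 of the 10 genes were called, against 12% of all genes (3.57% lower and 8.39% higher with shDNMT1#1). GALNT7 was 2.51-fold higher with shDNMT1#1 than with shDNMT1#2 (log2 difference 1.33 ± 0.13 SE, adjusted p = 2.9e-07). UAP1 was lower with shDNMT1#1 (-0.58 ± 0.11, adjusted p = 7.4e-04), as was GALNT3 (-0.53 ± 0.13, adjusted p = 0.01). The hairpin with the larger decrease of GALNT7 was therefore the one with the smaller differences of UAP1 and GALNT3 from control. The GALNT3 call was lost without shDNMT1#1 replicate 2 (-0.41) or shDNMT1#2 replicate 1 (-0.44). C1GALT1 differed by -0.02 between these hairpins (95% interval -0.28 to 0.25, adjusted p = 0.96).

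The order of the 5 groups separates the genes into patterns. For GALNT3 the group means ran from 3.66 in shHDAC3#1 through 5.45 in shHDAC3#2, 5.68 in shDNMT1#1 and 6.22 in shDNMT1#2 to 6.48 in shLuc. For UAP1 they ran from 7.28 in shHDAC3#1 through 8.50 in shDNMT1#1, 8.81 in shHDAC3#2 and 9.08 in shDNMT1#2 to 9.79 in shLuc. Both genes thus had the same lowest group and the same 2 highest groups, and only the neighbours shHDAC3#2 and shDNMT1#1 changed places; for GALNT3 their nearest arrays were 5.53 and 5.56. GALNT7 had another order, with 6.38 in shDNMT1#2, 7.38 in shHDAC3#2, 7.64 in shHDAC3#1, 7.71 in shDNMT1#1 and 8.23 in shLuc, and each of the 3 middle groups overlapped its neighbour among them in that order. For C1GALT1 the DNMT1 groups overlapped at means of 6.93 and 6.95, below shHDAC3#2 (7.31), shHDAC3#1 (7.77) and shLuc (7.99).

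**Figure D3:**
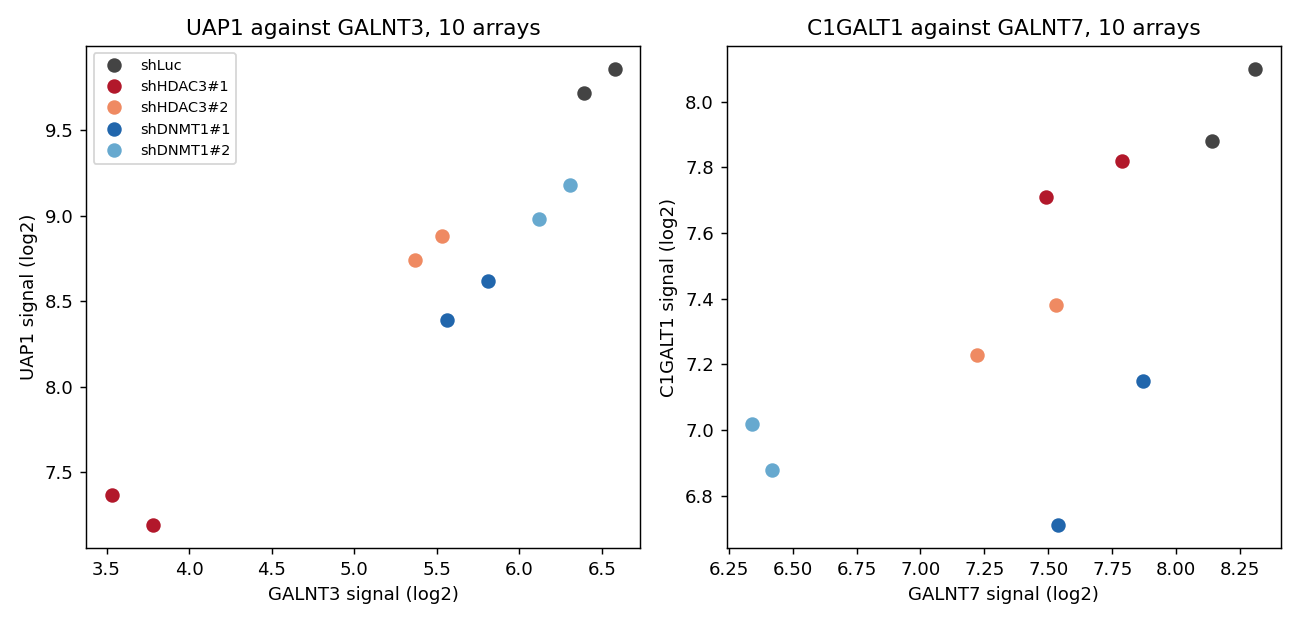
Log2 signal of UAP1 against GALNT3 (left) and of C1GALT1 against GALNT7 (right); each point is an array, coloured by group. UAP1 and GALNT3 are both lowest in shHDAC3#1 and highest in shLuc, whereas on the right the shDNMT1#2 arrays are lowest for GALNT7 but overlap shDNMT1#1 for C1GALT1.

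The 10 genes were read by 25 probe sets, and other probe sets of a gene did not always follow the brightest. For GALNT7 they did: the other probe set (mean signal 5.68) changed by -0.67 in HDAC3 and -0.94 in DNMT1 knockdown. GALNT1 was read by 5, of which 4 lay between -0.84 and -0.53 with shHDAC3#1, while 236746_at stood at 0.31. For GALNT10 the next probe set changed by -0.50 with shHDAC3#1 and -0.11 with shHDAC3#2, and the third, a dim one, by -0.03 and -0.15.

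The decrease of C1GALT1 was largest on 219439_at, the leading probe set. Its others changed by -0.05 (226105_at) and -0.15 (226107_at) in HDAC3 knockdown and by -0.12 and -0.28 in DNMT1 knockdown, so that the size of the decrease depends on the probe set. For GALNT2 the other 3 lay at 0.26, 0.09 and 0.00 in DNMT1 knockdown, below the 0.57 of the leading one. GALNT6 was read lower by 219956_at (-0.40 and -0.29 in HDAC3 and DNMT1 knockdown) than by the leading 228303_at (-0.02 and 0.12). The other probe set of GALNT3, 203398_s_at, read between 3.07 and 3.43 on all arrays, near background, and gave 0.08 and 0.05; the decrease of GALNT3 therefore rests on 203397_s_at. UAP1 and GALNT11 have 1 probe set each and could not be compared in this way.

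**Figure D4:**
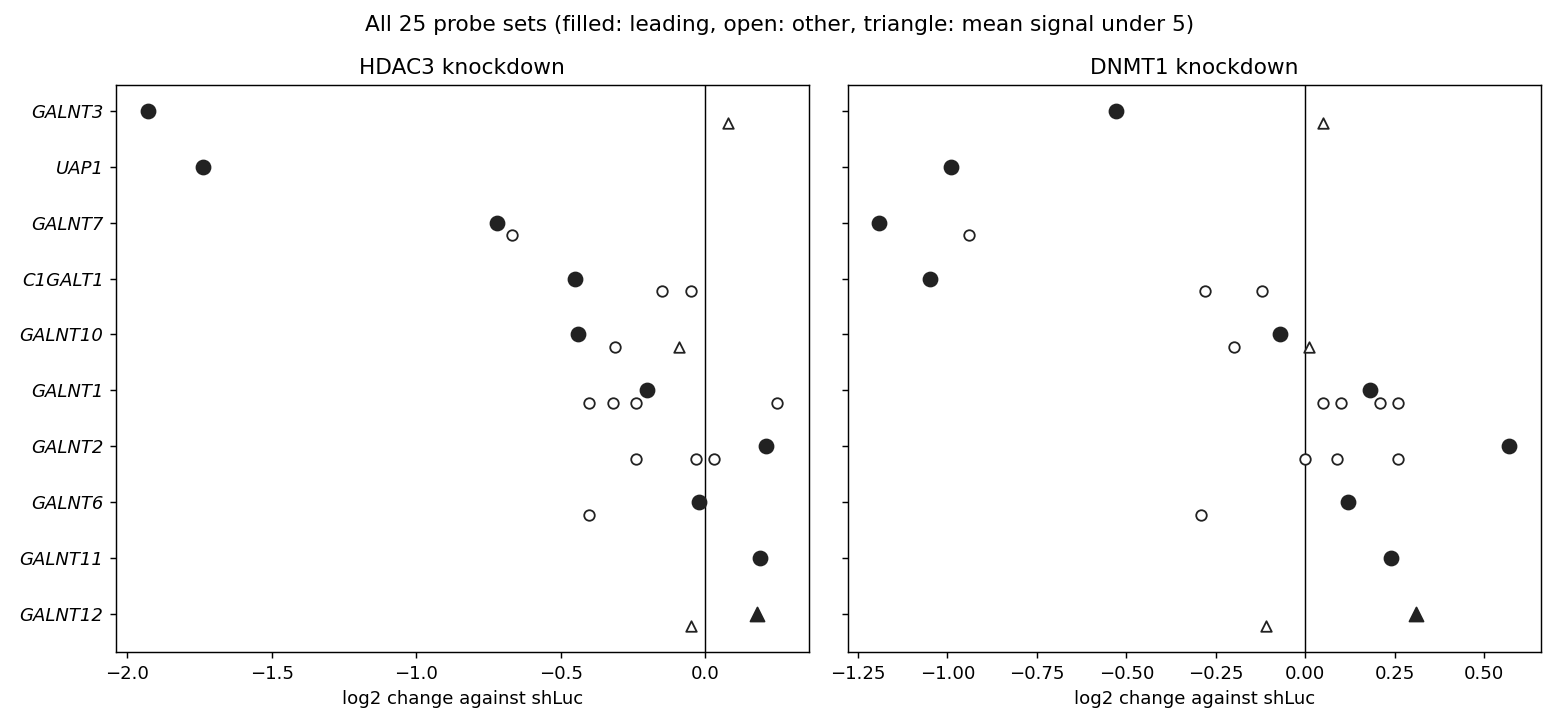
Log2 change against shLuc of all 25 probe sets of the 10 genes in HDAC3 (left) and DNMT1 knockdown (right); filled symbols are leading probe sets, open symbols the others, and triangles probe sets with a mean signal under 5. Both probe sets of GALNT7 are lower in both panels. The others of C1GALT1 in both panels, and those of GALNT2 on the right, lie closer to 0 than the leading ones.

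The rest of the pathway was described through 5 lists with 70 entries, of which 65 were measured and the others were not analysed here. In HDAC3 knockdown 4 of the 65 genes rose and 12 fell, and in DNMT1 knockdown 7 rose and 10 fell. These 16 and 17 genes stand beside a background of 19.2% and 20.2% of all genes called. The median change was 0.07 in both, against 0.05 and 0.07 for all genes. The split between directions depends on scaling: further quantile normalization gave 10 higher and 10 lower in HDAC3 and 11 and 9 in DNMT1 knockdown, and median centring 2 and 15, and 4 and 13. Fewer pathway genes were called without shLuc replicate 1, and fewer of all genes as well. With the hairpin as a random block none was called in either knockdown, nor was any with the array SD as a covariate. Over all genes 0.369% and 0.157% were called with the block, and 0.576% and 0.602% with the covariate.

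Among the other members of the GALNT family limma called none lower. Of 11 measured, 2 rose in each knockdown. Over all genes 3.96% and 6.66% were called higher in HDAC3 and DNMT1 knockdown, and 15.3% and 13.5% lower. At an unadjusted p under 0.05, 1 of the 11 was lower in HDAC3 knockdown and none in DNMT1 knockdown. GALNT8 rose in both (0.37, adjusted p = 0.016, and 0.42, adjusted p = 0.0074), GALNT18 in HDAC3 knockdown (0.31, adjusted p = 0.046) and GALNTL5 in DNMT1 knockdown (0.36, adjusted p = 0.029; dim, at a mean of 4.62). Of the 14 enzymes that branch or cap O-glycans, among them C1GALT1C1, the chaperone C1GALT1 needs to fold, limma called none in either knockdown; at an unadjusted p under 0.05, 2 were higher in HDAC3 and 4 in DNMT1 knockdown and none lower. C1GALT1C1 had changes of -0.13 (adjusted p = 0.38) and -0.14 (adjusted p = 0.33).

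In HDAC3 knockdown 15.3% of all genes were called lower and 3.96% higher, with a median change of 0.05. Of 17 genes that make, salvage or transport nucleotide sugars, limma called none higher there (0 at an unadjusted p under 0.05). Their median change was -0.16, and 4 of the 17 fell, near the background. They were the N-acetylglucosamine kinase NAGK (-0.57, adjusted p = 1.0e-04), the Golgi carriers SLC35A1 for CMP-sialic acid (-0.54, adjusted p = 2.3e-04) and SLC35A3 for UDP-N-acetylglucosamine (-0.35, adjusted p = 0.022), and GNPDA1, a deaminase that returns glucosamine phosphate to glycolysis (-0.31, adjusted p = 0.0094). The fall of GNPDA1 rests on shHDAC3#1, with -0.67 against 0.06 for shHDAC3#2, and in DNMT1 knockdown it rose (0.29, adjusted p = 0.015). In DNMT1 knockdown 3 fell and 3 rose (median -0.02), where 13.5% of all genes were called lower and 6.66% higher (median 0.07). SLC35A1 was lower again (-0.40, adjusted p = 0.0037) and the UDP-galactose carrier SLC35A2 higher (0.47, adjusted p = 9.3e-04). GNPDA2 and the carrier SLC35D1 were each lower by a change of -0.35 (adjusted p = 0.045 and 0.024). The fall of GNPDA2 rests on shDNMT1#2, with -0.62 against -0.07 for shDNMT1#1. NANS was higher (0.26, adjusted p = 0.043), with 0.44 for shDNMT1#1 and 0.07 for shDNMT1#2. GFPT1, the rate-limiting enzyme of the hexosamine pathway upstream of UAP1, was not called in either (-0.08, adjusted p = 0.63, and -0.17, adjusted p = 0.28). Its HDAC3 hairpins went opposite ways, with 0.30 for shHDAC3#1 and -0.46 for shHDAC3#2, and it was called lower with shHDAC3#2 alone. GFPT1 was also called in HDAC3 knockdown without probe sets that can cross-hybridize, and in DNMT1 knockdown with the mean of its probe sets. UAP1L1, the paralog of UAP1, was called in neither knockdown (0.15, adjusted p = 0.37, and 0.09, adjusted p = 0.6).

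Among 7 genes that use UDP-N-acetylglucosamine outside mucin-type glycosylation or remove the O-GlcNAc mark, 4 fell in HDAC3 knockdown and 3 in DNMT1 knockdown. Over all genes 15.3% and 13.5% were called lower. In neither did limma call any of the 7 higher (0 at an unadjusted p under 0.05). Their medians were -0.33 and -0.26, against 0.05 and 0.07 for all genes, and the list as a set was not tested. OGA, which removes O-GlcNAc, fell in both (-0.90, adjusted p = 3.1e-06, and -0.63, adjusted p = 2.0e-04), as did ALG13, a subunit of the enzyme that adds the next sugar of the N-glycan precursor (-0.77, adjusted p = 2.6e-04, and -0.75, adjusted p = 3.8e-04). DPAGT1, which starts that precursor, fell in HDAC3 knockdown (-0.78, adjusted p = 4.4e-06), and the hairpins gave -1.34 and -0.22. OGT, which adds O-GlcNAc, fell there too (-0.33, adjusted p = 0.027), with -0.66 and 0.01 for the hairpins, and ALG14, the partner of ALG13, fell in DNMT1 knockdown (-0.50, adjusted p = 0.002).

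Of 16 proteins known to carry O-glycans, 4 fell and 2 rose in each knockdown (medians 0.10 and 0.12). These counts stand beside 15.3% and 13.5% of all genes called lower and 3.96% and 6.66% called higher (medians 0.05 and 0.07). The sialomucin PODXL had changes of -0.81 (adjusted p = 1.3e-06) and -0.38 (adjusted p = 0.0045) in HDAC3 and DNMT1 knockdown, and the sialomucin CD164 had -0.67 (adjusted p = 4.4e-06) and -0.58 (adjusted p = 2.8e-05). The adhesion protein CD99 had -0.38 (adjusted p = 0.014) and -0.49 (adjusted p = 0.0017), and the hyaluronan receptor CD44 had -0.71 (adjusted p = 1.6e-06) and -0.35 (adjusted p = 0.0035). EMCN rose in HDAC3 (0.33, adjusted p = 0.034) and DNMT1 knockdown (0.48, adjusted p = 0.0023) at a dim mean of 4.06. SPN, the other gene called higher in each, had 0.30 (adjusted p = 0.04) and 0.28 (adjusted p = 0.05 as rounded) at a mean of 7.82. FGF23, the substrate of GALNT3, was not called (0.09, adjusted p = 0.59, and 0.21, adjusted p = 0.2). MUC1, a mucin described on myeloma cells, had 0.23 (adjusted p = 0.078) and 0.14 (adjusted p = 0.28).

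**Figure D5:**
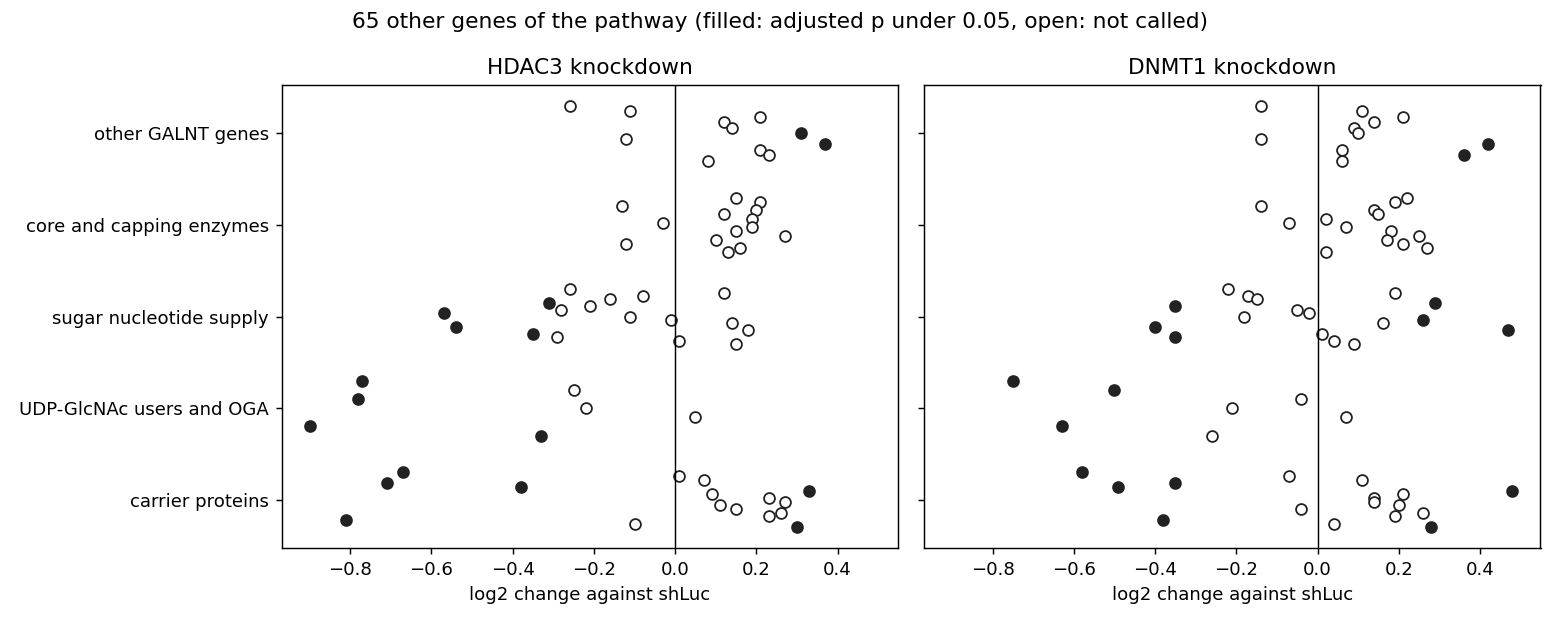
Log2 change against shLuc of the 65 other pathway genes by list in HDAC3 (left) and DNMT1 knockdown (right); filled points have an adjusted p under 0.05. No other GALNT gene and no core or capping enzyme is called lower, whereas the filled points among users of UDP-GlcNAc, 4 and 3, all lie below 0. Over all genes 15.3% and 13.5% were called lower.

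The genes whose signal most resembled GALNT3 were ranked by Pearson's r over the 10 arrays among 14554 genes with a mean signal of at least 5. They were TCTA (0.980), ADAM10 (0.979), LSS (0.979), LRRC47 (0.978) and HYOU1 (0.976). For UAP1 they were HPS3 (0.991), LRRC47 (0.984), MRPL42 (0.976), STX17 (0.972) and MRPL30 (0.969). LRRC47 is on both lists, with log2 changes of -1.22 and -0.52 in HDAC3 and DNMT1 knockdown, and HPS3 had -1.55 and -0.84. The arrays fall into 5 groups of 2 with shHDAC3#1 far below the rest for both genes, so these values are a ranking by a shared order of groups and carry no test.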

How the data were processed

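The authors deposited log2 signals of 54675 probe sets; per the submitters' processing notes they come from RMA, whose version and whose run structure (all arrays at once or not) are not stated there. RMA removes background and quantile-normalizes the probes, which makes signals relative within an array and flattens changes near background. Precision is limited by how few arrays there are.

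Through the platform annotation 41097 probe sets had 1 symbol, 1801 several and 11777 none; the last 2 kinds were not named. By gene ID 41043 matched RefSeq, with no symbol changed. For each of 19775 genes the brightest probe set over the 10 arrays led, and none was filtered out as dim. limma 3.58.1 in R 4.3.3 (lmFit, eBayes with trend) fitted all 5 groups in a model with 5 residual degrees of freedom, checked on simulated data. Tests were two-sided, SE is limma's, and both hairpins of a target were averaged before shLuc was subtracted.

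The members and gene lists were chosen with earlier results of these data known. Named genes were all members, up to 4 called genes of each list with the largest change in a knockdown, both targets, and the 5 genes most correlated with GALNT3 and with UAP1 (mean of at least 5, symbols starting with LOC left out). C1GALT1C1, GFPT1, UAP1L1, FGF23, MUC1 and, in DNMT1 knockdown, CD44 and GNPDA1 were named in addition, for their known role, after their values were seen. SPN, NANS and, in HDAC3 knockdown, EMCN were also named after their values were seen, as the remaining called genes of their lists. Motifs were searched on both strands of the promoters. Results were recomputed with dim probe sets left out, with the mean over each gene's probe sets, without those ending in _s_at or _x_at (which can cross-hybridize), after further quantile normalization or median centring, with eBayes without trend or with array weights, in a fit of a comparison's own arrays, without each array, with the replicate number as a block, with the hairpin as a random block, for each hairpin alone and, chosen after seeing the data, with the array SD as a covariate.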

Additional observations from a re-analysis of the deposited data

Results flagged for a closer look

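Effects under the same comparison that differed between groups by a test of the difference itself (limma, adjusted over all genes) are given as values. Between the knockdowns (DNMT1 minus HDAC3) these were GALNT1 (0.37, adjusted p = 0.0018), GALNT2 (0.36, adjusted p = 0.0016), GALNT7 (-0.47, adjusted p = 0.0016), GALNT10 (0.38, adjusted p = 0.0062) and C1GALT1 (-0.60, adjusted p = 1.1e-04). Between the hairpins against HDAC3 (shHDAC3#1 minus shHDAC3#2) they were GALNT1 (-0.67, adjusted p = 8.3e-05), GALNT2 (-0.32, adjusted p = 0.041), GALNT10 (-0.93, adjusted p = 1.1e-05) and C1GALT1 (0.46, adjusted p = 0.019). GALNT3 (-1.79) and UAP1 (-1.53) were called there as well. Both were chosen on the mean of these same arrays against control, so their calls are not independent of that choice. Between the hairpins against DNMT1 (shDNMT1#1 minus shDNMT1#2) the called differences were GALNT3 (-0.53, adjusted p = 0.01), GALNT7 (1.33, adjusted p = 2.9e-07) and UAP1 (-0.58, adjusted p = 7.4e-04). Groups of 2 arrays are too small for a test of outlying arrays.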

How the results depend on the processing

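Over the members' changes, 964 values under an alternative kept their direction and their side of the threshold (or, where there was no test, moved by less than the spread of the replicates), 45 lost the call, 7 gained it, 16 moved and 8 reversed. Reversed were GALNT10 in HDAC3 knockdown with shHDAC3#2 alone (0.02) and with the array SD as a covariate (0.09), C1GALT1 in HDAC3 knockdown (0.12) and GALNT3 in DNMT1 knockdown (0.05) with that covariate, and GALNT2 between the HDAC3 hairpins with the mean of its probe sets (0.04) and without probe sets that can cross-hybridize (0.03), and without the latter also in DNMT1 knockdown (0.00) and between the knockdowns (-0.03). The cause was not tested. In HDAC3 knockdown GALNT3 stood at -1.37 and UAP1 at -1.49 with the covariate, and GALNT3 at -0.93 with the mean of its probe sets, 1 of which is near background. Without probe sets that can cross-hybridize, GALNT3, GALNT7 and GALNT12 were not measured, since all their probe sets are of that kind. Counts in that setting cover 6 of 8 members in and between knockdowns, 7 of 10 between hairpins and 50 of 65 pathway genes. Its lower counts below thus include genes that were missing, not tested. Of the 4 called in DNMT1 knockdown, GALNT2 alone lost its call there, and of the 3 between DNMT1 hairpins none did.

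Of the counts of called members, that of HDAC3 knockdown (3) became 0 with the hairpin as a random block (consensus correlation 0.35) and 0 with the array SD as a covariate, and ranged from 1 to 4 with an array left out. That of DNMT1 knockdown (4) became 1 without probe sets that can cross-hybridize, 0 with the random block and 1 with the covariate, and ranged from 3 to 5. Between the HDAC3 hairpins (6) it ranged from 4 to 6. Between the DNMT1 hairpins (3) it was 1 without probe sets that can cross-hybridize and ranged from 2 to 3. Between the knockdowns (5) it was 3 with the mean of probe sets and 3 without those that can cross-hybridize, and ranged from 4 to 5. Of the pathway genes called in HDAC3 knockdown (16), 8 were called without probe sets that can cross-hybridize, 0 with the random block, 10 with shHDAC3#2 alone, 0 with the covariate and 8 to 22 with an array left out. In DNMT1 knockdown (17) these were 8, 0, 8 with shDNMT1#1 alone, 0, and 3 to 20; both lowest counts came without shLuc replicate 1.

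The labels give the same replicate numbers to all groups, but same-numbered arrays did not deviate together (correlations of -0.34 to 0.27), so that the numbers were not taken as pairs. With the replicate block the counts were 3 in HDAC3 knockdown, 4 in DNMT1 knockdown, 5 and 3 between the hairpins of HDAC3 and of DNMT1, 5 between the knockdowns, and 14 and 15 among pathway genes; of the members' calls, that of GALNT2 between the HDAC3 hairpins was lost.

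Over all genes, 784 were called higher and 3017 lower in HDAC3 knockdown and 1317 and 2674 in DNMT1 knockdown; further quantile normalization gave 1955 and 2450, and 1968 and 2294, and median centring 417 and 3269, and 523 and 3062. With the random block 73 and 31 genes were called in all, and with the covariate 114 and 119. Each lone array left in a group was assumed to vary like the other groups. The calls over all genes also changed with the array left out, and in both knockdowns fewest were left without shLuc replicate 1.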
